A study of Selenicereus undatus with 4 samples.

Results

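The pseudo-response regulators examined here were the 6 unigenes, of 11051 listed for pitaya, whose annotation names a two-component response regulator-like protein APRR1, APRR2, APRR5 or APRR9. They were Unigene0050201 (APRR9), Unigene0045107, Unigene0048532 and Unigene0048533 (all APRR5), Unigene0026108 (APRR1) and Unigene0041878 (APRR2). A unigene is a transcript assembled from the reads without a reference genome, so no chromosome position was known for any of them. The recovered lengths were 3169, 3376, 3422, 584, 963 and 2329 nt in that order.

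The plants were one-year-old pitaya (Selenicereus undatus) of the cultivar Jindu No.1, a red-fleshed climbing cactus grown in a field. RNA came from the top part of the stem, with tissue around the thorn seat, where flower buds emerge. The paper describes choosing buds of like size at sampling. L2 samples were therefore taken to hold flower buds, and NL samples, from plants that had not flowered, to hold none. L2 plants received 5 h of supplementary light per night and were taken 1 week after the bud stage, and NL plants received no supplementary light and had not flowered. Watering and fertilization were the same for both. Each stage had 3 libraries, L2-1 to L2-3 and NL-1 to NL-3, and each was made from 4 mixed plants. The question was how far these clock genes differed between the stages, and whether paralogs moved by the same amount. Light and bud development differed at once between L2 and NL and cannot be told apart. The hour of harvest was not given in the sources used here. The L0 and L1 stages of the same series were not analysed here.

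Plants keep daily time with a loop of transcriptional repressors. In Arabidopsis the pseudo-response regulators are made in succession from morning (PRR9) through the day (PRR5) to the evening (PRR1, also called TOC1), and they repress the morning MYB genes CCA1 and LHY, which in turn repress evening genes. Their receiver domain resembles that of the cytokinin response regulators but lacks the phosphate-accepting residue, hence the prefix pseudo. The CCT domain at their other end is shared with CONSTANS and its relatives, through which the clock and daylength act on flowering. APRR2 carries a MYB-like domain in place of the CCT domain and is known from fruit pigmentation in tomato and pepper rather than from the clock.

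All values are RPKM, reads scaled to the length of the unigene and to the total of the library, which allow levels of different genes to be set side by side. The table lists only genes that had already been called different between L2 and NL, so a difference in a listed gene was a condition of its listing and its test is no independent evidence. In the limma test on log2(RPKM + 0.1), a moderated linear model over all listed genes with Benjamini-Hochberg adjustment, all 6 pseudo-response regulators passed an adjusted p of 0.05, as did 99.3% of the listed genes. Scaled to library totals, 5 of the 6 were lower in L2, against 36.3% of the listed genes, and 1 was higher, against 63.0%. The L2 and NL libraries did not overlap for any of the 6 (97.6% of the listed genes, 35.5% with L2 lower and 62.0% with L2 higher). Sizes and their spread are therefore the subject of the following paragraphs.

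Unigene0050201, annotated as APRR9 and assigned by KEGG to the circadian rhythm pathway, was the most abundant of the 6 at both stages. In Arabidopsis PRR9 is the morning member of the family, and its transcript is induced by light. Its level was 15.2, 66.6 and 31.2 RPKM in L2-1, L2-2 and L2-3, against 147, 126 and 222 RPKM in NL-1, NL-2 and NL-3. The highest L2 library was below the lowest NL library by 1.89-fold, which was the narrowest gap among the 6. The mean was 37.7 ± 26.3 RPKM in L2 and 165 ± 50.4 RPKM in NL (SD, n = 3 each), 4.38-fold lower in L2. The limma log2 change was -2.34 (SE 0.49, adjusted p = 0.0027). These levels rest on 2163 reads in L2 and 7355 reads in NL.

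APRR5 was represented by 3 unigenes, all assigned to the KEGG circadian rhythm pathway. Arabidopsis PRR5 represses CCA1 and LHY during the afternoon and is degraded after binding the F-box protein ZEITLUPE. Unigene0045107, matched to isoform X2 of a database protein, had 2.32, 6.64 and 6.73 RPKM in L2-1, L2-2 and L2-3, against 119, 138 and 110 RPKM in NL-1, NL-2 and NL-3. This was the largest decrease among the 6, with a gap of 16.4-fold between the highest L2 and the lowest NL library. The mean was 5.23 ± 2.52 RPKM in L2 and 122.5 ± 14.0 RPKM in NL, 23.4-fold lower in L2. The limma log2 change was -4.67 (SE 0.39, adjusted p = 6.11e-05).

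Unigene0048532, matched to isoform X1, had 2.91, 11.5 and 6.19 RPKM in L2-1, L2-2 and L2-3, against 54.7, 54.7 and 43.9 RPKM in NL-1, NL-2 and NL-3. It was below Unigene0045107 in each NL library, while in L2 the levels of both APRR5 unigenes overlapped. Its mean was 6.88 ± 4.35 RPKM in L2 and 51.1 ± 6.24 RPKM in NL, 7.44-fold lower in L2, with a limma log2 change of -3.08 (SE 0.44, adjusted p = 0.000469). Within a library, the ratio of Unigene0045107 to Unigene0048532 was 0.797, 0.575 and 1.09 in L2-1, L2-2 and L2-3, against 2.18, 2.52 and 2.51 in NL-1, NL-2 and NL-3. This ratio is not affected by library size or scaling. Its log2 difference between L2 and NL was -1.59 (SE 0.27, exact permutation p = 0.1, two-sided, which is the smallest that 3 against 3 libraries allow).

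Unigene0048533, the shortest of the 6, bears the number next to that of Unigene0048532 and was matched to an APRR5 protein of Jatropha curcas. It had 0, 0.295 and 0.590 RPKM in L2-1, L2-2 and L2-3, against 3.78, 3.55 and 3.57 RPKM in NL-1, NL-2 and NL-3, from 3 reads in L2 and 29 reads in NL. The ratio of reads per library total was 13.5-fold lower in L2 (exact 95% interval 4.20 to 69.5, counting error only). The limma log2 change of -3.63 (SE 0.75, adjusted p = 0.00238) depends on the pseudocount at so few reads. Without L2-1, which had no read, the log2 change was -2.84. The ratio of Unigene0048532 to Unigene0048533 overlapped between L2 and NL (log2 difference 0.56, SE 0.58, exact permutation p = 0.4). Whether reads of the APRR5 unigenes were split between near-identical assembled sequences was not tested, and their single levels are uncertain to that extent.

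Summed over the 3 APRR5 unigenes, each scaled to its own length, the level was 12.4 ± 6.69 RPKM in L2 and 177 ± 19.2 RPKM in NL, 14.3-fold lower in L2 (exact permutation p = 0.1, n = 3 each).

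Unigene0026108 was the only one of the 6 that was higher in L2. Its description names APRR1, the family member known in Arabidopsis as TOC1, which peaks around dusk and represses CCA1 and LHY. Its gene symbol field, however, gives COL4, a CONSTANS-like protein, and KEGG did not assign it to the circadian rhythm pathway. Since both kinds of protein carry a CCT domain, its membership of the family rests on the description alone. It had 10.3, 5.01 and 8.04 RPKM in L2-1, L2-2 and L2-3, against 0.687, 0 and 0 RPKM in NL-1, NL-2 and NL-3. All 3 NL reads came from NL-1, whereas L2 had 148 reads. Reads per library total were 35.2-fold higher in L2 (exact 95% interval 11.8 to 173, counting error only). The limma log2 change was 5.25 (SE 0.87, adjusted p = 0.000892). Without NL-1 the log2 change was 6.24 and the level was at least 23.5-fold higher in L2, against a floor of 3 reads over the other 2 NL libraries. Another unigene described as CONSTANS-LIKE 4, Unigene0028118, was lower in L2, with 66.1 RPKM in L2 and 248 RPKM in NL (limma log2 change -1.92, adjusted p = 0.000143).

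Unigene0041878, annotated as APRR2, had 0.456, 2.37 and 2.37 RPKM in L2-1, L2-2 and L2-3, against 6.73, 7.90 and 9.94 RPKM in NL-1, NL-2 and NL-3. The mean was 1.73 ± 1.10 RPKM in L2 and 8.19 ± 1.63 RPKM in NL, 4.73-fold lower in L2, from 72 reads in L2 and 264 reads in NL. The limma log2 change was -2.45 (SE 0.63, adjusted p = 0.00634), and without L2-1, where only 8 reads were counted, it was -1.73. KEGG did not assign APRR2 to the circadian rhythm pathway.

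**Figure D1:**
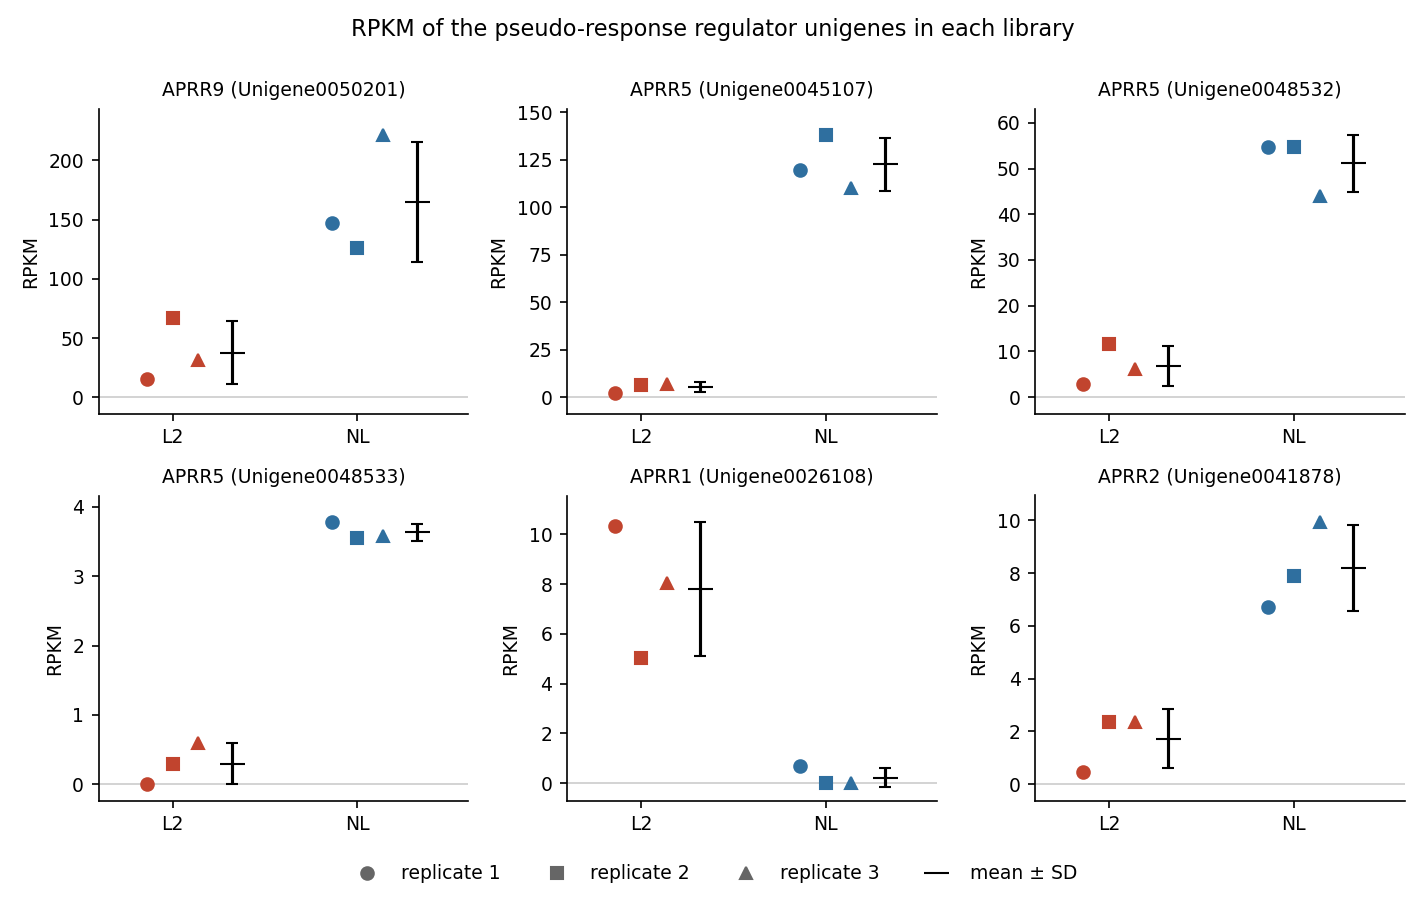
RPKM of each of the 6 pseudo-response regulator unigenes in the 3 L2 (red) and 3 NL (blue) libraries, 1 panel per unigene with its own linear axis, and mean ± SD beside the points. The L2 points lie below all NL points in 5 panels and above them for APRR1 (Unigene0026108), where 2 NL libraries had no read.

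The order of levels within the family differed between the stages. In L2 it ran from APRR9 (37.7 RPKM) through APRR1 (7.80), the APRR5 unigenes Unigene0048532 (6.88) and Unigene0045107 (5.23) and APRR2 (1.73) to Unigene0048533 (0.295). Here the lowest L2 level of APRR9 was above the highest of the next gene, while the ranges of all other neighbours in the order overlapped. In NL the order was APRR9 (165 RPKM), Unigene0045107 (122.5), Unigene0048532 (51.1), APRR2 (8.19), Unigene0048533 (3.63) and APRR1 (0.229). There APRR9 and Unigene0045107 overlapped and the other neighbours did not. APRR9 stood at the 88.3rd percentile of listed genes by mean RPKM in L2 and at the 98.1st in NL. Unigene0045107 stood at the 44.7th percentile in L2 and at the 97.3rd in NL.

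The family sum was 31.3, 92.5 and 55.1 RPKM in L2-1, L2-2 and L2-3, against 332, 330.2 and 390 RPKM in NL-1, NL-2 and NL-3. It averaged 59.6 ± 30.8 RPKM in L2 and 351 ± 33.8 RPKM in NL, 5.88-fold lower in L2 (exact permutation p = 0.1, n = 3 each). The composition of this sum differed as well. The 3 APRR5 unigenes made up 20.4% ± 3.92 of it in L2 and 51.2% ± 9.67 in NL, without overlap. APRR9 made up 59.1% ± 11.9 in L2 and 46.5% ± 9.57 in NL, which overlapped (exact permutation p = 0.3, n = 3 each). APRR1 made up 17.7% ± 14.1 in L2 and 0.069% ± 0.12 in NL, and its share in L2 was 33.1% in L2-1 but 5.42% in L2-2.

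All 15 ratios between pairs of these unigenes were compared between L2 and NL by an exact permutation test, and none had an adjusted p below 0.15. In 10 pairs the L2 and NL libraries did not overlap, including all 5 pairs with APRR1. Those 5 were bound to separate, since APRR1 was higher and each of the others lower in L2 without overlap. No such count is given here for pairs of other listed genes. Of the 10 pairs among the other unigenes, 5 did not overlap, and 4 of these included Unigene0045107. The log2 ratio of Unigene0045107 to APRR9 was lower in L2 by -2.33 (SE 0.46), and that of APRR2 to Unigene0045107 was higher by 2.22 (SE 0.31). Between APRR2 and APRR9 the difference was -0.11 (SE 0.40, exact permutation p = 0.7), with overlapping libraries. Unigene0048532 and APRR9 also overlapped in their ratio, with a difference of -0.74 (SE 0.35, exact permutation p = 0.2). With 3 libraries per stage, an overlap does not show that both genes of a pair fell equally.

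The spread within L2 was larger than within NL for APRR9, Unigene0045107, Unigene0048532 and APRR2. For APRR1, with 3 reads in NL, the SD of log2(RPKM + 0.1) was 0.52 in L2 and 1.72 in NL. For Unigene0048533, with 3 reads in L2, it was 1.43 in L2 and 0.048 in NL. APRR9 varied 4.37-fold between the lowest and highest L2 library and 1.76-fold in NL. For Unigene0045107 the spread was 2.90-fold in L2 and 1.25-fold in NL, for Unigene0048532 it was 3.96-fold in L2 and 1.25-fold in NL, and for APRR2 it was 5.19-fold in L2 and 1.48-fold in NL. Among 674 listed genes with L2 read sums close to that of APRR9, 99.3% had a smaller SD of log2 RPKM over the L2 libraries. The same share was 95.4% for Unigene0045107, 97.4% for Unigene0048532 and 94.7% for APRR2. Over the NL libraries the share was 97.8% for APRR9, so that its spread was wide at both stages, and 52.6%, 45.0% and 46.2% for Unigene0045107, Unigene0048532 and APRR2.

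L2-1 was the lowest L2 library for all 5 unigenes that were lower in L2, and for 53.3% of all listed genes called lower. Related genes shared this to a degree. L2-1 was lowest or tied for lowest for 18 of 21 light-harvesting genes and for 13 of the 18 other clock genes that were lower in L2 (72.2%). Ties were counted for L2-1, including 2 light-harvesting genes and 1 clock gene with no read in L2. The light-harvesting genes Unigene0029352 and Unigene0058810 tied as well, with no read in L2-1 and L2-3. Of all listed genes 437 had no read in L2. The shares for these sets and for all genes called lower are therefore upper limits. The median difference of L2-1 from the other 2 L2 libraries was -1.57 on the log2 scale for the 5, -1.09 for the light-harvesting genes, -0.43 for those clock genes and -0.08 for all genes called lower. APRR1 was highest in L2-1. L2-1 was also the most deeply sequenced library, with 7533457 reads against 5803177 and 5808774 in L2-2 and L2-3. With L2-1 left out, the log2 changes were -1.81 for APRR9, -4.17 for Unigene0045107, -2.58 for Unigene0048532 and 5.02 for APRR1, and all 6 kept their direction and their limma call.

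NL-3 divided the family. It held the highest NL level of APRR9 and of APRR2, and the lowest of Unigene0045107 and Unigene0048532. The difference of NL-3 from NL-1 and NL-2 was 0.70 on the log2 scale for APRR9 and 0.44 for APRR2, against -0.22 for Unigene0045107 and -0.32 for Unigene0048532. The ratio of Unigene0045107 to APRR9 was 0.152, 0.0996 and 0.216 in L2-1, L2-2 and L2-3, against 0.813, 1.09 and 0.498 in NL-1, NL-2 and NL-3. Of the 22 other clock genes 17 were also highest in NL-3, among them all 5 clock MYB unigenes and GIGANTEA. Lowest there were 4, namely FKF1, JMJ30, PCL1 (Unigene0033497) and topless-related protein 3 (Unigene0049463). All 4 cycling Dof unigenes were highest in NL-3, Unigene0029432 from only 6 NL reads. Of all listed genes 34.7% were highest and 29.4% lowest in NL-3, with ties counted for an earlier library.

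**Figure D2:**
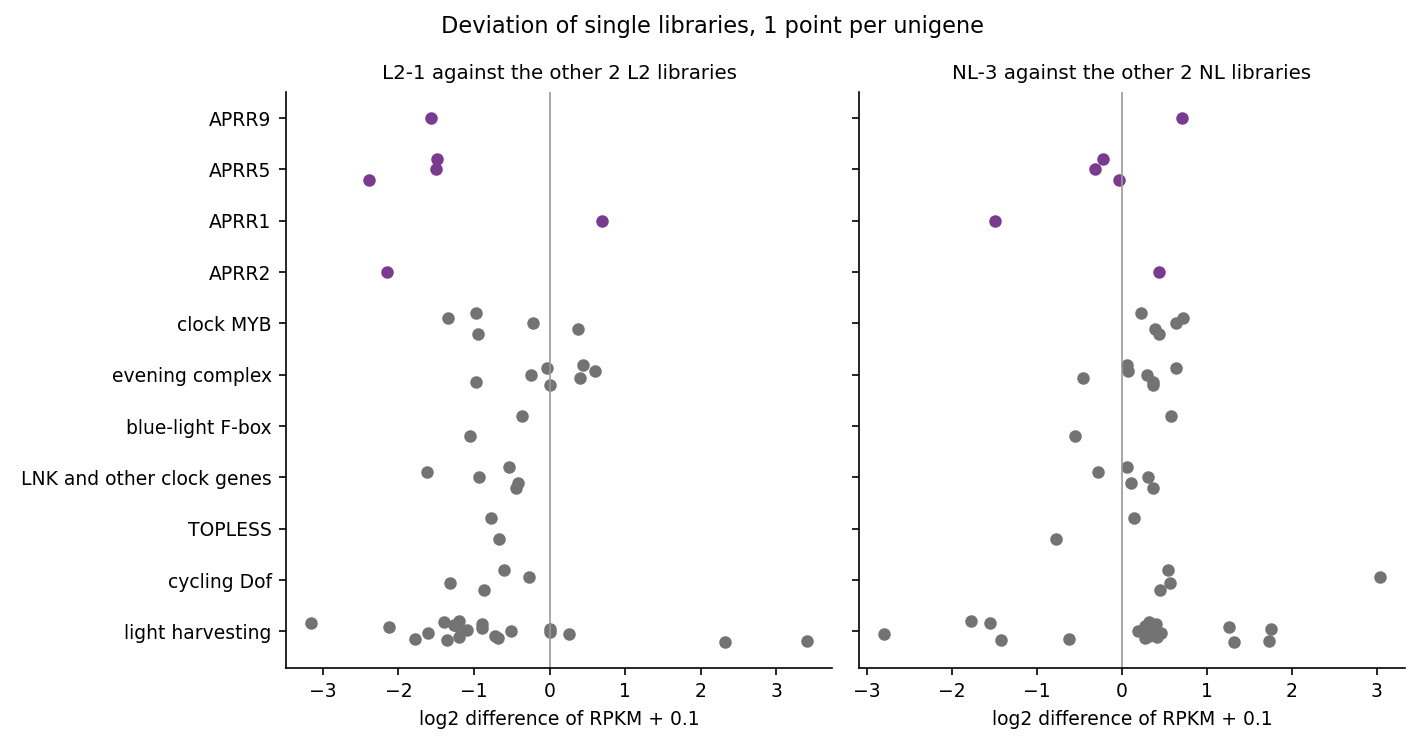
Difference of L2-1 from the mean of the other 2 L2 libraries (left) and of NL-3 from the mean of the other 2 NL libraries (right), in log2(RPKM + 0.1), 1 point per unigene, for the pseudo-response regulators (purple) and for lists of clock and light-harvesting genes (grey). Among the pseudo-response regulators, L2-1 lay below the others for all but APRR1, and NL-3 lay above the others for APRR9 and APRR2. NL-3 lay below the mean of the others for the APRR5 unigenes, by little for Unigene0048533 (-0.03). For APRR1 neither NL-3 nor NL-2 had a read, so its point reflects the reads of NL-1.

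The genes that act with the pseudo-response regulators were taken from lists by words in the annotations. Of 22 other clock genes, 18 were lower and 4 higher in L2, with a median log2 change of -2.08, against a median of 1.43 over all listed genes. The morning MYB genes, which the family represses in Arabidopsis, were lower in all 5 cases. Both unigenes annotated as circadian clock associated1 were lower, Unigene0036436 with a limma log2 change of -2.31 (SE 0.30, adjusted p = 0.000269) and Unigene0049229 with one of -2.92 (SE 0.32, adjusted p = 0.00014). Unigene0036436 had 39.0, 89.8 and 65.5 RPKM in L2-1, L2-2 and L2-3, against 290, 285 and 337 RPKM in NL-1, NL-2 and NL-3. The library order within L2 was thus that of APRR9. The related REVEILLE genes, 8 (Unigene0038151), 6 (Unigene0045344) and 1 (Unigene0049123), had log2 changes of -3.43, -2.19 and -2.08.

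Among the partners of the family, FKF1 (Unigene0045624), the blue-light receptor F-box protein that acts on flowering with GIGANTEA, had 14.1 RPKM in L2 and 109 RPKM in NL (limma log2 change -3.05, SE 0.37, adjusted p = 0.000204). ZEITLUPE (Unigene0038201), its relative that degrades PRR5 and TOC1 protein in Arabidopsis, went the other way, with 12.1 RPKM in L2 and 4.22 RPKM in NL (log2 change 1.52). This call of ZEITLUPE was lost with edgeR's TMM factors and with DESeq2's size factors (adjusted p up to 0.257). Both sets of factors were estimated from the listed genes alone. TOPLESS, a corepressor that Arabidopsis pseudo-response regulators recruit, was higher in L2 (Unigene0006377, log2 change 1.38), a call lost under the same 2 settings (adjusted p up to 0.302). Topless-related protein 3 (Unigene0049463, log2 change 2.02) kept its call. GIGANTEA (Unigene0050242) had 0.955, 0 and 0 RPKM in L2-1, L2-2 and L2-3, against 3.18, 3.73 and 6.83 RPKM in NL-1, NL-2 and NL-3, with only 2 reads in L2.

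Of the 7 evening complex genes, which repress PRR9 at night in Arabidopsis, 6 were lower and 1 was higher in L2. EARLY FLOWERING 4-like (Unigene0022870) had a log2 change of -3.39 and EARLY FLOWERING 3 (Unigene0039817) one of -2.08, while ELF4-LIKE 4 (Unigene0024454) changed less, by -1.31. The PCL1 genes, homologs of the DNA-binding subunit LUX, were split. Unigene0021827 was higher in L2, with 7.49 RPKM in L2 and 1.21 RPKM in NL (log2 change 2.52), Unigene0003395 and Unigene0033497 were lower (-1.77 and -1.29), and Unigene0047168 had no read in L2. The coactivators LNK2 (Unigene0049676, -2.60) and LNK1 (Unigene0050741, -1.92, and Unigene0051337, -1.46) and the demethylase JMJ30 (Unigene0045932, -2.91) were also lower in L2. The smallest change among the clock genes was that of XAP5 CIRCADIAN TIMEKEEPER (Unigene0035074, -1.04).

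**Figure D3:**
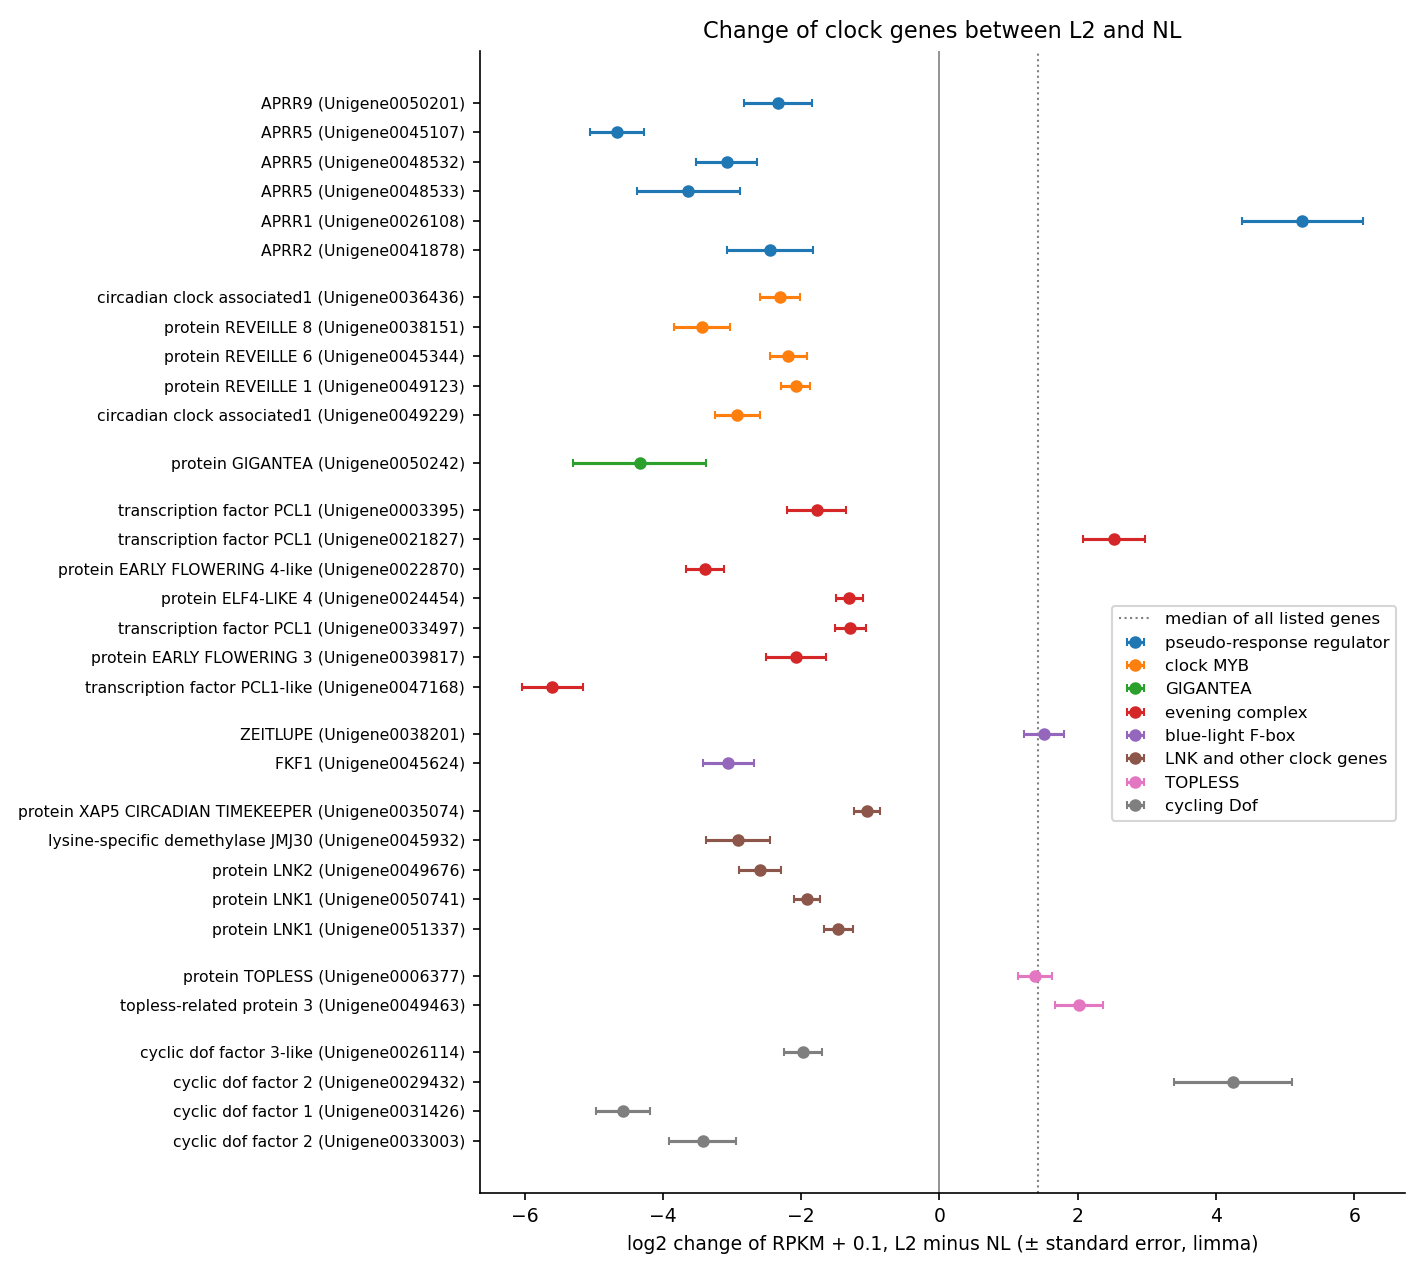
Log2 change of RPKM + 0.1, L2 minus NL, with the standard error from limma, for the 6 pseudo-response regulator unigenes and the listed clock and cycling Dof genes. Points left of 0 were lower in L2, and the dotted line marks the median of all listed genes, 1.43. Unigene0045107 (-4.67) lies farthest left and APRR1 (5.25) farthest right among the pseudo-response regulators.

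Downstream of the family, cycling Dof factors delay flowering in Arabidopsis and are repressed by PRR9, PRR7 and PRR5. Of 4 listed, 3 were lower in L2. Cyclic dof factor 1 (Unigene0031426) had 3.74 RPKM in L2 and 85.2 RPKM in NL (limma log2 change -4.57, SE 0.39, adjusted p = 6.14e-05), and a unigene annotated as cyclic dof factor 2 (Unigene0033003) had a log2 change of -3.43. Another unigene annotated as cyclic dof factor 2 (Unigene0029432) was higher in L2, with 3.75 RPKM in L2 and 0.241 RPKM in NL, from 112 reads in L2 and 6 reads in NL (log2 change 4.25, SE 0.86, adjusted p = 0.00219). Of 11 CONSTANS-like genes 8 were lower and 3 higher in L2, and CONSTANS-LIKE 2 (Unigene0029386, -5.20) and CONSTANS-LIKE 14 (Unigene0030366, -3.54) had the largest changes among those with at least 1 RPKM at both stages.

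The response regulators of cytokinin signalling share the receiver domain. Of 7 unigenes described as ARR or ORR, 3 were lower and 4 higher in L2, with a median log2 change of 1.13, close to the listed genes as a whole (36.3% lower, 63.0% higher, median 1.43). ARR9-like (Unigene0004917, -2.51) and ORR24 (Unigene0004439, -2.45) had the largest changes among those with at least 1 RPKM at both stages. Larger changes, in the other direction, were those of ORR9 (Unigene0050423, 7.04, and Unigene0003439, 4.56). Both ORR9 unigenes had no read in NL, against 129 and 41 reads in L2.

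The genes with patterns most like each unigene were found by Euclidean distance of log2(RPKM + 0.1), centred on each gene's mean, over the 6 libraries. For Unigene0045107 these were plastocyanin B'/B'' (distance 0.65), an electron carrier of photosynthesis, and cyclic dof factor 1 (0.71). For Unigene0048532 they were a DUF506 family protein (0.37) and an SPX domain-containing protein (0.39), and FKF1 ranked 3rd of all listed genes (0.42). For APRR9 they were PLASTID MOVEMENT IMPAIRED 1-RELATED 1 (0.27) and cytochrome oxidase assembly protein 3 (0.36), and the nearest clock gene was circadian clock associated1 (Unigene0036436, 0.78, rank 28). For APRR1 they were GAST1 (0.37) and DNA polymerase delta subunit 4 (0.43), and its nearest clock gene, PCL1 (Unigene0021827), ranked 2416th. APRR2 was nearest to a gene annotated as glucanosyltransferase gel3 (0.52) and to a hypothetical protein (0.58), and Unigene0048533 to kinesin-13A-like (0.52) and RICESLEEPER 1-like (0.72).

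Tissue markers moved with the stages. Of 21 light-harvesting genes, which mark green photosynthetic cells, 19 were lower in L2 by limma, and 2 of the 21 had no read in L2. Their summed level was 640, 1532 and 971 RPKM in L2-1, L2-2 and L2-3, against 3762, 3611 and 4656 RPKM in NL-1, NL-2 and NL-3. Of 17 genes listed as floral MADS-box, 13 were higher and 4 lower in L2, with no read of 2 genes in NL. Their sums were 334 to 439 RPKM in L2 and 101 to 125 RPKM in NL. This list included an APETALA 2-like gene (Unigene0038086, log2 change 2.43), which is not a MADS-box gene. In the cyclin list 14 of 15 were higher in L2, including a cyclin-D1-binding protein (Unigene0032630, 1.12), which is not a cyclin. Of 16 histone genes 14 were higher and 2 lower. Among all listed genes 63.0% were higher. These counts depend on scaling. Under edgeR's TMM factors 10 of the MADS-box list, 12 of the cyclin list and 6 histones were higher, and under DESeq2 8, 11 and 5. Fewer cells of a type and less RNA per cell cannot be told apart in such bulk samples. The part of tissue composition in the pseudo-response regulator levels was not tested.

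The sums of the pseudo-response regulators and of the light-harvesting genes ordered the L2 libraries alike, L2-2 above L2-3 above L2-1. Per 1000 RPKM of light-harvesting genes, the pseudo-response regulators had 48.9, 60.4 and 56.7 RPKM in L2-1, L2-2 and L2-3, against 88.3, 91.4 and 83.7 RPKM in NL-1, NL-2 and NL-3. The ratio was 1.59-fold lower in L2, 55.3 ± 5.87 against 87.8 ± 3.90 (exact permutation p = 0.1, n = 3 each), while the unscaled sum was 5.88-fold lower. The direction of this ratio rested on 2 genes. Unigene0032585 and Unigene0032586, the most abundant of the 21, made up 64.7% of the light-harvesting sum in L2 and 37.3% in NL, with log2 changes of -1.22 each, whereas the median log2 change of the 21 was -2.92. Per 1000 RPKM of the other 19 genes, a setting chosen after the data had been seen, the pseudo-response regulators had 143.6, 169 and 159 RPKM in L2-1, L2-2 and L2-3, against 143.2, 142 and 134 RPKM in NL-1, NL-2 and NL-3, 1.13-fold higher in L2 (exact permutation p = 0.1, n = 3 each).

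Relative to the light-harvesting sum, a scaling chosen after the data had been seen, APRR9 had a limma log2 change of -0.32 (SE 0.38, adjusted p = 0.465) and APRR2 one of -0.43 (SE 0.62, adjusted p = 0.549), with overlapping libraries. On the same scale Unigene0045107 had a log2 change of -2.65 (SE 0.41, adjusted p = 3.41e-05), Unigene0048532 one of -1.06 (SE 0.42, adjusted p = 0.033) and APRR1 one of 7.27 (SE 0.95, adjusted p = 8.65e-06), each without overlap. Unigene0048533 had one of -1.61 (SE 0.77, limma adjusted p = 0.0725), also without overlap. The share of all listed genes without overlap on this scale is not given here. On this scale 5 of the 22 clock genes were called lower in L2. Of all listed genes 991 were called lower and 7056 higher. Relative to the other 19 genes, 487 of all listed genes were called lower and 8127 higher in limma. Among the 6, only Unigene0045107 was still called lower (-1.81, limma adjusted p = 0.00098). APRR1 was higher (8.11, limma adjusted p = 1.29e-06), like most listed genes on this scale. Unigene0048532 had a log2 change of -0.22 (adjusted p = 0.649), and APRR9 and APRR2 turned to 0.52 (adjusted p = 0.233) and 0.41 (adjusted p = 0.56) in limma.

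**Figure D4:**
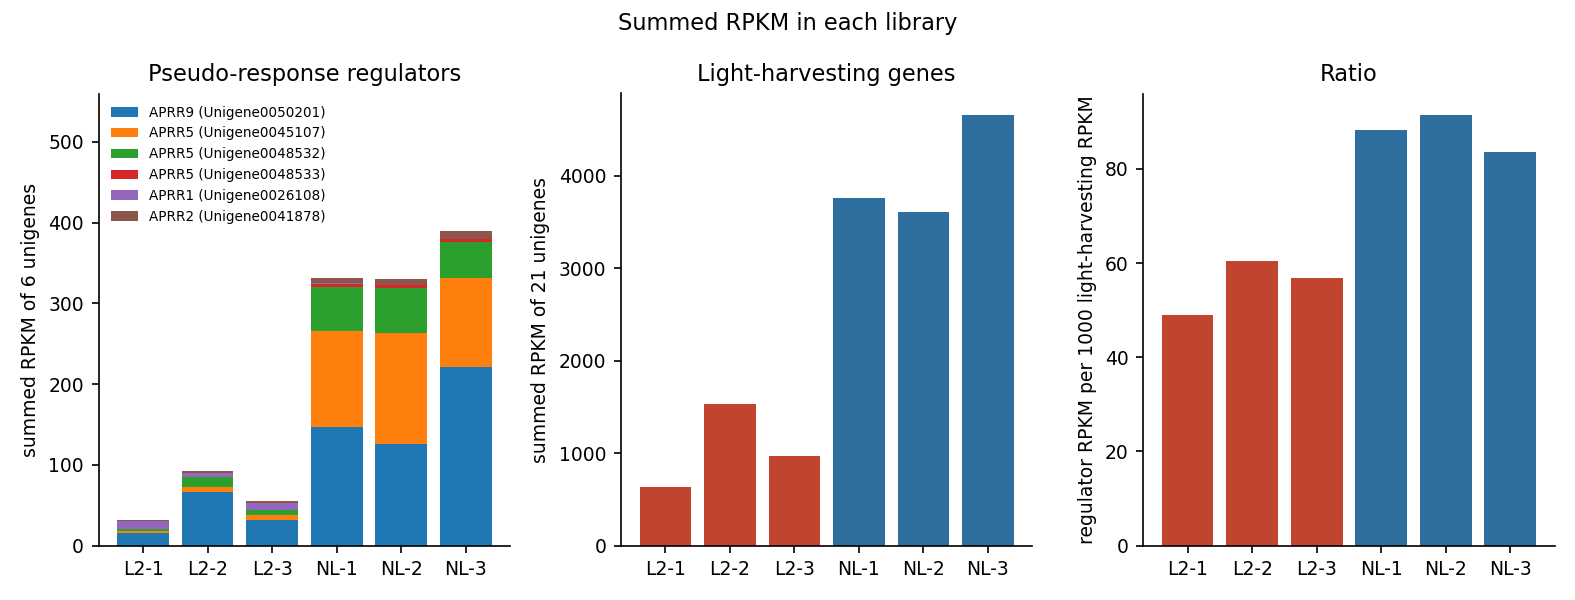
Summed RPKM of the 6 pseudo-response regulator unigenes (left, stacked by unigene), summed RPKM of 21 light-harvesting genes (middle) and the ratio of both sums (right) in each L2 and NL library. Both sums are lower in every L2 library than in any NL library, and the ratio is 48.9 to 60.4 in L2 and 83.7 to 91.4 in NL, an order that reversed without the 2 most abundant light-harvesting genes.

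Library totals were 5803177 to 7533457 reads in L2 and 3860701 to 5269237 reads in NL, of which the listed genes took 43.9% to 44.2% in L2 and 46.0% to 48.6% in NL. Relative to library totals, TMM factors were higher in L2 than in NL by 0.85 and DESeq2 size factors by 1.08 on the log2 scale, which lowers log2 changes. Both sets of factors were estimated from the listed genes alone, all of which had already been called different. These methods take most genes as unchanged, so the size of the shift is uncertain and these settings are no independent check. APRR9 had a log2 change of -2.996 with edgeR and TMM and -3.19 with DESeq2, Unigene0045107 of -5.42 and -5.64, and APRR1 of 4.15 and 4.001. Of all listed genes, 4007 were lower and 6967 higher in L2 in the limma test, against 4041 lower and 4268 higher with edgeR and TMM, and 4021 lower and 2779 higher with DESeq2. The pseudo-response regulators kept 5 lower and 1 higher under both. All 6 also passed a minimum of 1 RPKM in at least 3 libraries, APRR1 through its L2 libraries alone and Unigene0048533 through its NL libraries alone.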

How the data were processed

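RNA of pitaya stem tissue, taken to include flower buds in L2 but not in NL, was sequenced, and both stages were compared. The authors assembled clean reads de novo with Trinity and mapped them to the unigenes with Bowtie2. The counting tool and test were not given in the sources used here. The authors deposited RPKM per library, mean RPKM per stage and the estimated count as a mean per stage. The deposited log2 ratio, p-value and FDR of the authors' own comparison were not used. Their table keeps genes by FDR (limit 0.05) and by size of the log2 ratio (1 or more, either sign).

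Reads, library totals and unigene lengths were recovered from RPKM and mean counts: of 59302 values above 0, 59302 came out whole within 0.05 reads. GEO holds 1 sample per stage, and the 3 libraries per stage were taken from the column names and the methods. Stages were compared with limma 3.58.1 in R 4.3.3 (trend option, two-sided, Benjamini-Hochberg over 11051 genes) on log2(RPKM + 0.1), a scale that understates the change of low genes. Exact intervals (95%) and the floor of 3 reads cover counting error only. Alternatives were pseudocounts of 1 and 0.01, a filter, edgeR 4.0.16, DESeq2 1.42.0, a replicate block and leaving out each library. Fits were tested on simulated data. Python 3.11.15 did the rest.

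Named were all 6 unigenes, all listed clock genes, up to 2 of each other list by size of change (mean RPKM 1 or more at each stage), and the 2 annotated genes nearest to each unigene. Unigene0003439, Unigene0027094, Unigene0028118, Unigene0029352, Unigene0029432, Unigene0032585, Unigene0032586, Unigene0032630, Unigene0038086, Unigene0039644, Unigene0050423, Unigene0051570 and Unigene0058810 were chosen after their values were seen. Members and lists were chosen with earlier results of these data known, and list words were adjusted after the annotations were read.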

Additional observations from a re-analysis of the deposited data

How the results depend on the processing

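Over 13 alternatives, all 78 values of the 6 unigenes kept their direction and their call, with adjusted p-values up to 0.0261. Calls were common among all 11051 listed genes too, which had been listed for a difference. The replicate block called 3992 of them lower and 6902 higher, and DESeq2 called 4021 lower and 2779 higher. Leaving out each library in turn gave limma log2 changes of -2.87 to -1.81 for APRR9, -4.92 to -4.17 for Unigene0045107, -3.55 to -2.58 for Unigene0048532, -4.23 to -2.84 for Unigene0048533, -2.81 to -1.73 for APRR2 and 4.75 to 6.24 for APRR1. Between NL and L2 libraries of equal replicate number, correlations of deviations were 0.04, 0.02 and 0.06 for numbers 1, 2 and 3. For unequal numbers they were -0.05 to 0.01. All were weak, and whether replicate numbers pair the samples was not tested. The replicate block left 5 unigenes lower and 1 higher, with a log2 change of -4.67 for Unigene0045107. Clock genes called higher fell to 2 with edgeR's TMM factors and to 2 with DESeq2, and all listed genes called higher to 4268 and 2779. Both sets of factors were estimated from the listed genes alone. Relative to the light-harvesting sum, a setting added after the data had been seen, 2 of the 6 unigenes were called lower, with log2 changes of -0.32 for APRR9, -0.43 for APRR2 and -1.61 for Unigene0048533 no longer called. There, 991 of all listed genes, 5 clock genes and 0 ARR or ORR genes were called lower, and 7056 of all listed genes higher. Relative to the light-harvesting genes without their 2 most abundant, also added afterwards, 1 of the 6 was called lower. APRR9 turned to 0.52, APRR2 to 0.41 and the log2 ratio of the family sum to 0.17. Unigene0048532 (-0.22) and Unigene0048533 (-0.77) lost their calls. Called lower were 487 listed genes, 1 clock gene and 0 ARR or ORR genes, and called higher were 8127 listed genes and 9 clock genes. The log2 ratio of APRR2 to APRR9 turned from -0.11 to 0.46 with a pseudocount of 1, to 0.04368 without NL-2, to 0.08015 without L2-1 and to 0.07 without L2-2, the range over libraries left out being -0.48 to 0.08015. Ratios with Unigene0048533, at 0 to 2 reads per L2 library, turned with the pseudocount, that of Unigene0045107 to 0.20 at 0.01, that of Unigene0048532 to -1.01 at 1 and that to APRR9 to 0.43 at 1. The causes were not tested. With 3 libraries per stage the exact test cannot fall below 0.1, and the 3 reads of APRR1 in NL and of Unigene0048533 in L2 limit both folds.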
